A study of Mus musculus with 10 samples.

Results

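The genes of cholesterol synthesis and their main regulators were described in whole B16OVA tumors from mice that had received intratumoral BO-112 or its vehicle. The list held 29 genes, named by the steps of the pathway and by the SREBP2 system that controls it, and was put together when Idi1 and Cyp51 were already known to lie among the transcripts of largest fall in these tumors. No measured threshold was applied: a gene was taken where the platform annotation gave its symbol to a probe set, and, for a gene with several probe sets, the set would have been selected on the highest mean over all 10 arrays, without regard to treatment. Of the 29 genes, 26 had a named probe set, each of them a single one, out of 19176 named genes tested. Acat2, Tm7sf2 and Srebf1 were not analysed here.

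B16OVA cells are murine melanoma cells that express ovalbumin, a model antigen. Female C57BL/6 mice aged 8 to 10 weeks were inoculated under the skin with 500000 of these cells, and the tumors were injected on 2 occasions and taken 48 h after the second one. BO-112, which is Poly I:C (a mimic of double-stranded viral RNA) packed with the carrier polyethylenimine, was given at 2.5 mg/kg to 5 mice, and 5 mice received an equal volume of 5% glucose. Tumors given the carrier alone or naked Poly I:C were not analysed here, so the parts of BO-112 cannot be told apart. Total RNA of each whole tumor was hybridized to 1 Clariom S Mouse array, and every value below is a log2 expression value after Robust Multichip Average (RMA) normalization, in which a difference of 1 is a factor of 2. A whole tumor also holds leukocytes and stroma, so fewer melanoma cells and less of a transcript per cell cannot be told apart.

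Cells make cholesterol from acetyl-CoA. The mevalonate steps give isoprenoid units, which are joined to farnesyl diphosphate and then squalene. Squalene is closed to lanosterol, and lanosterol is trimmed to cholesterol in the endoplasmic reticulum. SREBP2, the product of Srebf2, is the transcription factor of these genes. When membrane cholesterol is low, SCAP escorts SREBP2 to the Golgi, where proteases free its active part. When sterols are plentiful, the INSIG proteins hold SCAP back. Because Insig1 and Srebf2 are themselves SREBP2 targets, their transcripts usually move with those of the enzymes. In macrophages, interferon is known to lower cholesterol synthesis, in part through the oxysterol made by Ch25h.

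SREBP2 binds sterol regulatory elements close to the transcript start, usually beside sites of NF-Y and Sp1. The 150 bases upstream of the annotated start are shown for the gene with the letters of that element (Hmgcs1), for both genes of largest fall (Idi1 and Cyp51), for an enzyme with tightly packed motifs (Msmo1), for the regulator itself (Srebf2) and for the gene with the opposite sign (Npc2). Sequences are from RefSeq, build GRCm38.p6, and run 5′ to 3′ toward the start on the strand of the gene. Capitals mark TCACNCCAC (sterol regulatory element), CCAAT (NF-Y) and GGGCGG (Sp1), each searched on both strands. The stretches lie at chr13:119690201-119690350 (plus strand), chr13:8885456-8885605 (plus strand), chr5:4104698-4104847 (minus strand), chr8:64733579-64733728 (minus strand), chr15:82147119-82147268 (plus strand) and chr12:84773113-84773262 (minus strand).
Hmgcs1: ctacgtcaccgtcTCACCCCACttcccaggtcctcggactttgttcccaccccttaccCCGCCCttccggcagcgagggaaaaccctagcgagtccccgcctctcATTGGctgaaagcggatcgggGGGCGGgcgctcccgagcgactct
Idi1: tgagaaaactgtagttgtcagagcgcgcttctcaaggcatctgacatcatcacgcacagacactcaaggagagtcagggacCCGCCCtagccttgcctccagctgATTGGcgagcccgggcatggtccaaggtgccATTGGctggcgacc
Cyp51: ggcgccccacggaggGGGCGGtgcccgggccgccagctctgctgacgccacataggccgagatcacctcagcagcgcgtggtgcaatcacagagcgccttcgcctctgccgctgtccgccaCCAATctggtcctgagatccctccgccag
Msmo1: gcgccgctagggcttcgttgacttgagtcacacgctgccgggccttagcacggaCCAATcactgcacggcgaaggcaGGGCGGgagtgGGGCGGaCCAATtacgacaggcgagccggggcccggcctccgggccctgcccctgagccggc
Srebf2: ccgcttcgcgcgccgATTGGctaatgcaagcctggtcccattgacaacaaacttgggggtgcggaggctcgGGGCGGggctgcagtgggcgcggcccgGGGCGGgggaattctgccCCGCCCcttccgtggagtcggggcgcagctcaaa
Npc2: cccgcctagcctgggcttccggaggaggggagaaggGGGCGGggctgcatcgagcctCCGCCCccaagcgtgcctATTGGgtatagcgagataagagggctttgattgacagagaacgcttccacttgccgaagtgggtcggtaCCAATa

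Promoter windows (250 bases before and 50 after the start) were matched for 21 of the 26 measured genes; Fdps, Fdft1, Sqle, Stard4 and Npc1 had no entry. CCAAT was present in a window of 19 of these 21 genes (90.5%), against 42.2% of 15691 genes of the array with a window. By window it was present in 19 of 27, against 37.4% of all 32851 windows. Of the genes, only Scap and Aacs had no window with it. GGGCGG was present for 18 of 21 genes (85.7%), against 51.2% of the array's genes, and Pmvk, Ggps1 and Aacs lacked it. By window it was present in 21 of 27, against 35.7% of all windows. The 9 letters TCACNCCAC were found for 1 gene, Hmgcs1, against 1.43% of the array's genes. By window they were found in 1 of 27, against 1.24% of all windows. Npc2, whose values were higher after BO-112, held CCAAT and GGGCGG, as did most, but not all, of the matched genes whose values were lower. A match of letters is a description of the sequence, and a window without one says nothing about binding.

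**Figure D1:**
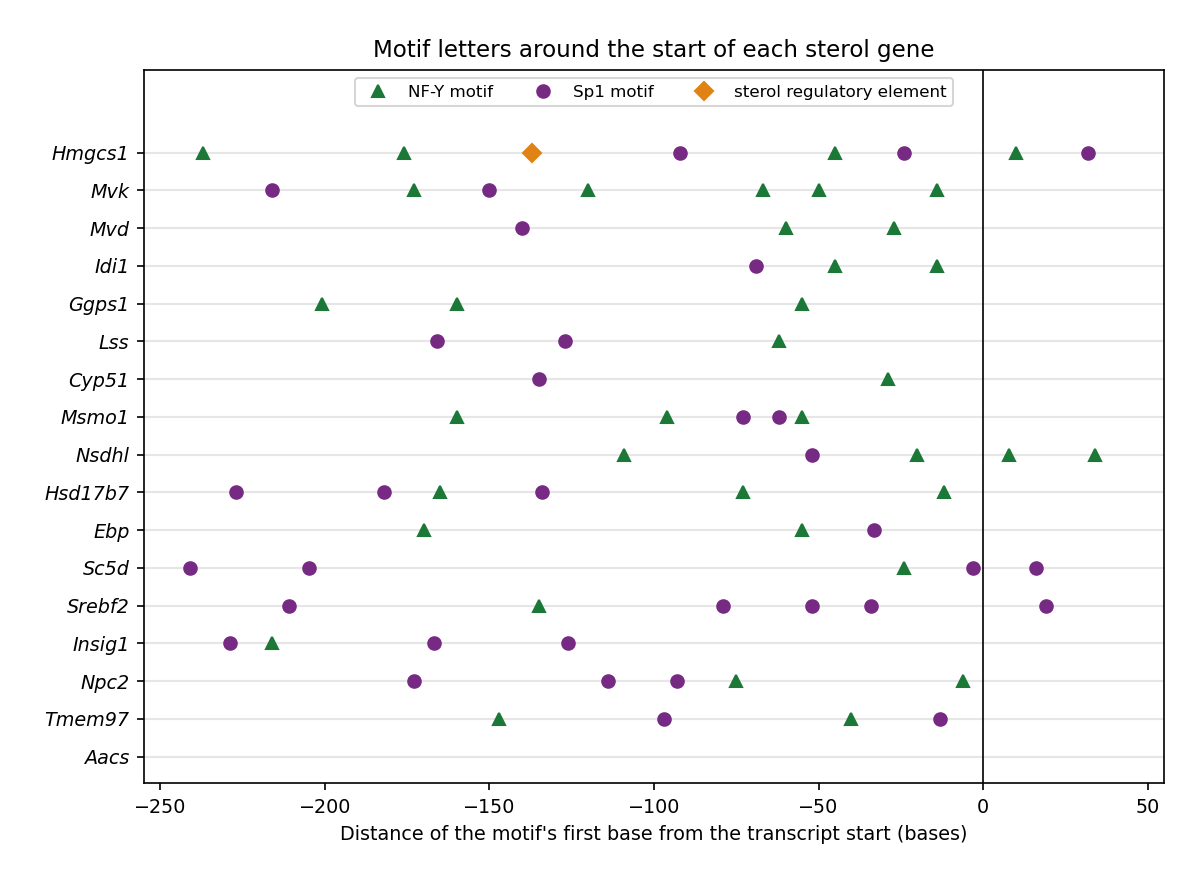
Position of the first base of each motif match (x axis, bases from the annotated transcript start, negative values upstream) for the 17 measured sterol genes with a single promoter window, 1 gene per line. Green triangles are CCAAT, purple circles GGGCGG and the orange diamond TCACNCCAC, on either strand. CCAAT is present in every line but that of Aacs, and the diamond stands in the line of Hmgcs1 only.

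The comparison asked how these genes differed after intratumoral BO-112 as against 5% glucose. Of the 26 genes, 25 had a negative log2 fold change (BO-112 minus Vehicle). With limma, fitted and adjusted over all 21792 probe sets, 13 were lower in BO-112 tumors at an adjusted p under 0.05, where 2.79% of all probe sets were lower, and 0 were higher, where 2.43% of all probe sets were higher. At an unadjusted p under 0.05, 20 were lower, where 14.1% of all probe sets were lower, and 1, Npc2, was higher, where 10.9% were higher. In either direction that threshold took in 25% of all probe sets, the share against which later counts at an unadjusted p are to be read. By the criterion of the study, a B-statistic over 0, 6 were lower, against 0.954% of all probe sets. All BO-112 values lay below all Vehicle values for 18 of the 26, against 5.30% of all probe sets. Later counts of genes that passed, or whose groups were separate, are to be read against these shares. The median log2 fold change of the 26 genes was -0.91, and that of all named genes was 0.01. Since the list was drawn up with these falls in view, its counts describe the genes and are no independent evidence that the pathway fell.

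The count of 13 depended on single tumors and on how the arrays were handled. It was 3 without BO-112 mouse 1, and 3, 1, 4 and 2 without Vehicle mouse 2, 3, 4 and 5 in turn, while BO-112 mouse 5 left out gave 16 and BO-112 mouse 4 left out gave 19. Calls over all probe sets, in either direction, moved too. They were 1138 with all mice and 446 without BO-112 mouse 1. Without Vehicle mouse 2, 3, 4 and 5 in turn they were 347, 404, 371 and 380. Without BO-112 mouse 5 they were 928, and without BO-112 mouse 4 they were 3135. Sterol genes lower at an unadjusted p under 0.05 numbered between 19 and 22 in the fits without 1 mouse. Over the 10 fits that each left out 1 mouse, Idi1 passed in 10, Fdft1 in 9, Fdps in 7, Mvd and Msmo1 in 6, Hmgcs1, Lss and Srebf2 in 5, Nsdhl in 4, Cyp51 and Sc5d in 3, Pmvk in 2 and Mvk in 1. Array contrast, the chance that a positive control outshines a negative control on the same array, lay between 0.845 and 0.883 in BO-112 and between 0.867 and 0.891 in Vehicle arrays. With that contrast as a covariate, 0 sterol genes passed in limma, where 27 of all probe sets did, and 13 were lower at an unadjusted p under 0.05. Across these same fits the median log2 fold change of the sterol genes stayed negative, between -1.02 and -0.68.

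**Figure D2:**
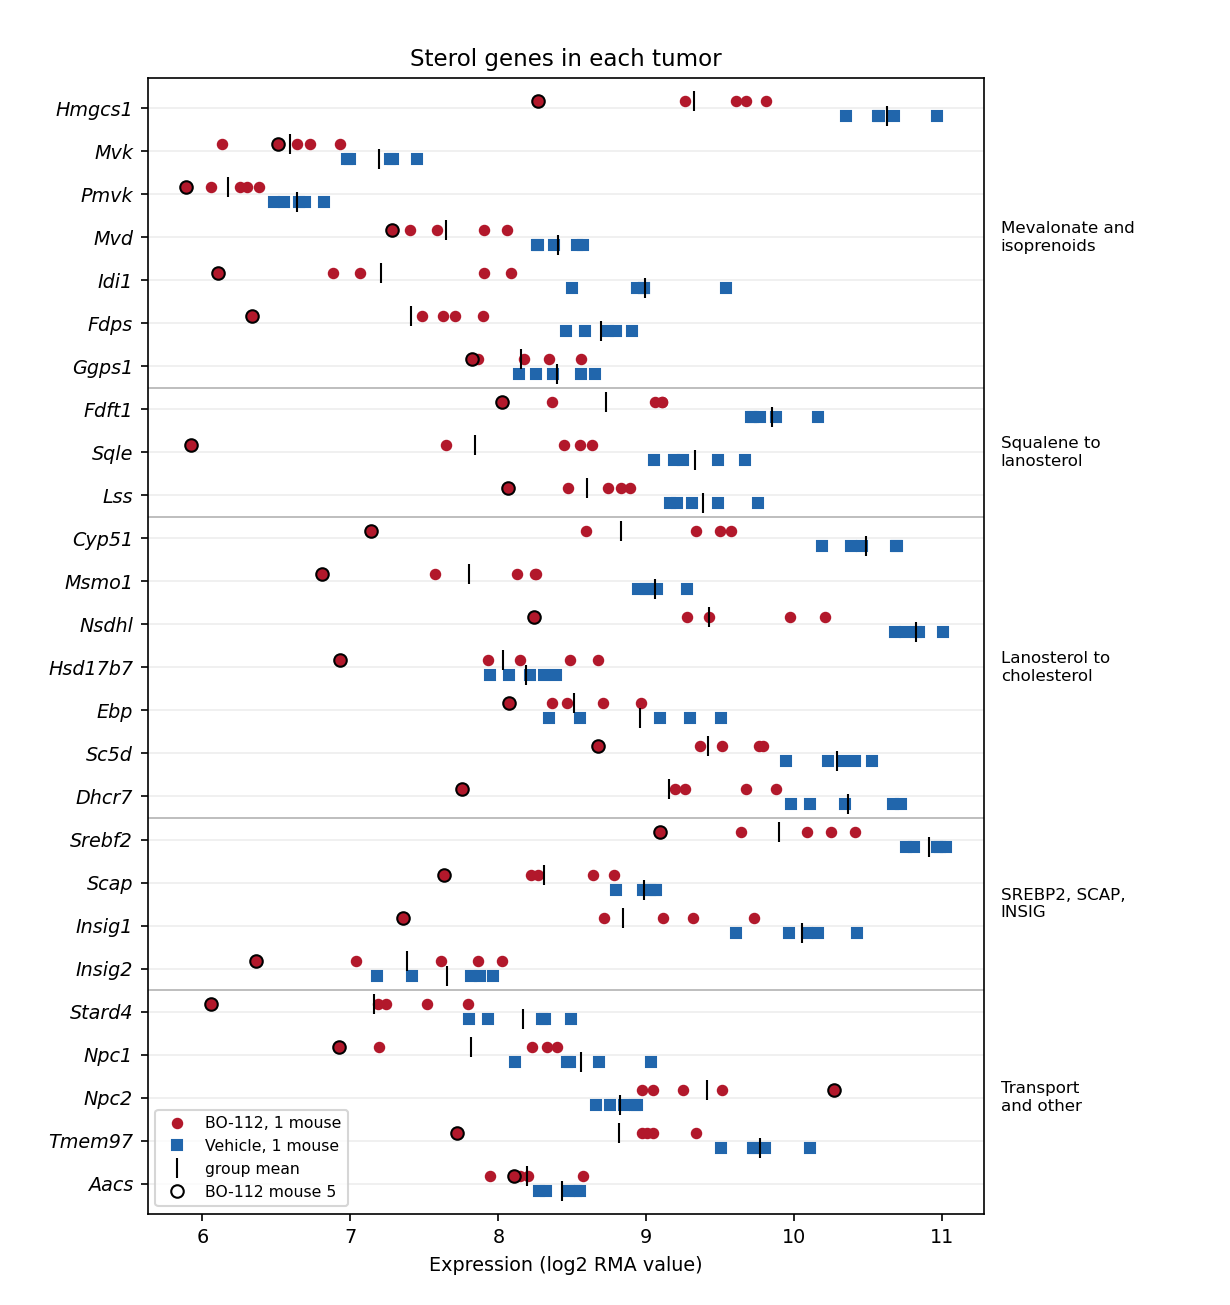
Log2 RMA expression (x axis) of the 26 measured sterol genes in each tumor, grouped by role, with BO-112 mice as red circles above Vehicle mice as blue squares and the group means as ticks. Rings mark BO-112 mouse 5. In 18 genes every red circle lies left of every blue square, and Npc2 is the gene with all circles to the right.

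Among the mevalonate and isoprenoid genes, 6 of 7 fell, where 2.79% of all probe sets did. Idi1, the isomerase that interconverts the isoprenoid units, had the largest fall of the list. It measured 6.89, 7.07, 7.90, 8.08 and 6.11 in BO-112 mice 1 to 5, against 8.50, 8.99, 9.54, 8.99 and 8.94 in Vehicle mice 1 to 5. The groups did not overlap, and the highest BO-112 value, in mouse 4, was below the lowest Vehicle value, in mouse 1. The log2 fold change was -1.78 (SE 0.34, limma adjusted p = 0.0169), which is 3.44-fold lower. In BO-112 mouse 5 its value was at the 75th percentile of the negative controls, and in the same mouse Sqle and Stard4 were also not above it.

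Hmgcs1, the cytosolic HMG-CoA synthase of the mevalonate steps, was 2.47-fold lower. Its values were 9.26, 9.60, 9.67, 9.81 and 8.27 in BO-112 and 10.35, 10.56, 10.96, 10.57 and 10.68 in Vehicle tumors. The log2 fold change was -1.30 (SE 0.26, limma adjusted p = 0.0194). Fdps, which makes farnesyl diphosphate, stood at 7.48, 7.62, 7.71, 7.89 and 6.34 in BO-112 tumors, against 8.46, 8.59, 8.74, 8.90 and 8.79 in Vehicle tumors. Fdps fell by 1.29 on the log2 scale (SE 0.25, limma adjusted p = 0.0193), with BO-112 mouse 5 more than 1 unit below the other BO-112 mice.

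The kinases and the decarboxylase between these enzymes had smaller log2 fold changes. Mvd, the decarboxylase, had 7.58, 8.06, 7.40, 7.91 and 7.28 in BO-112 and 8.27, 8.53, 8.57, 8.26 and 8.38 in Vehicle tumors (log2 fold change -0.76, SE 0.15, limma adjusted p = 0.0216). Mvk, mevalonate kinase, had 6.13, 6.73, 6.64, 6.93 and 6.51 in BO-112 and 7.00, 7.27, 7.45, 6.97 and 7.29 in Vehicle tumors. Its groups were barely separate, with BO-112 mouse 4 just under Vehicle mouse 4, and the log2 fold change was -0.61 (SE 0.16, limma adjusted p = 0.0466). Pmvk, phosphomevalonate kinase, had 6.06, 6.38, 6.30, 6.25 and 5.89 in BO-112 and 6.55, 6.69, 6.82, 6.49 and 6.65 in Vehicle tumors (log2 fold change -0.47, SE 0.12, limma adjusted p = 0.0447). Pmvk and Mvk were dim: they exceeded the 75th percentile of the negative controls, which lay between 6.07 and 6.30, on 3 and 4 of 5 BO-112 arrays and on 5 of 5 Vehicle arrays.

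Ggps1, which extends farnesyl diphosphate to the donor for protein geranylgeranylation and so leads away from sterols, averaged 8.15 ± 0.31 in BO-112 and 8.40 ± 0.21 in Vehicle tumors (SD, n = 5 each), and the groups overlapped (log2 fold change -0.24, limma adjusted p = 0.368).

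Of the enzymes from squalene to lanosterol, 2 of 3 fell and the groups of all 3 were separate, against 2.79% and 5.30% of all probe sets. Fdft1, squalene synthase, which commits farnesyl diphosphate to sterols, had 8.36, 9.06, 9.10, 9.11 and 8.02 in BO-112 and 9.77, 9.72, 10.16, 9.71 and 9.87 in Vehicle tumors. The log2 fold change was -1.12 (SE 0.22, limma adjusted p = 0.0179), with BO-112 mice 1 and 5 lowest. Lss, lanosterol synthase, had 8.47, 8.74, 8.83, 8.89 and 8.07 in BO-112 and 9.16, 9.48, 9.75, 9.21 and 9.31 in Vehicle tumors (log2 fold change -0.78, SE 0.17, limma adjusted p = 0.0294). Sqle, squalene epoxidase, a rate-limiting enzyme of the pathway, had 7.65, 8.55, 8.44, 8.64 and 5.92 in BO-112 and 9.05, 9.25, 9.48, 9.19 and 9.67 in Vehicle tumors. Its mean difference was large and its spread among BO-112 tumors the widest of the 26 genes (SD 1.14, against 0.25 in Vehicle tumors), and the log2 fold change of -1.49 had a limma adjusted p of 0.0723. Without BO-112 mouse 5 the difference was -1.01, and Sqle passed in that fit and in 2 of the 10 such fits in all.

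Between lanosterol and cholesterol, 4 of 7 enzymes fell, where 2.79% of all probe sets did. Cyp51, the lanosterol demethylase, had 8.59, 9.34, 9.50, 9.57 and 7.14 in BO-112 and 10.46, 10.38, 10.70, 10.19 and 10.69 in Vehicle tumors. BO-112 mouse 5 stood 2.11 below the mean of the other BO-112 mice, and these also lay below every Vehicle mouse. The log2 fold change was -1.65 (SE 0.40, limma adjusted p = 0.0386), and the difference was -1.23 without BO-112 mouse 5.

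The genes that act on the methyl groups at the fourth carbon were Msmo1 and Nsdhl, which passed, and Hsd17b7, which did not. Msmo1, the methyl oxidase, had 7.57, 8.13, 8.26, 8.25 and 6.81 in BO-112 and 9.07, 9.00, 9.28, 8.94 and 9.02 in Vehicle tumors (log2 fold change -1.26, SE 0.25, limma adjusted p = 0.0193). Nsdhl, the decarboxylating dehydrogenase, had 9.42, 9.27, 9.97, 10.21 and 8.24 in BO-112 and 10.75, 10.68, 11.00, 10.85 and 10.82 in Vehicle tumors (log2 fold change -1.40, SE 0.30, limma adjusted p = 0.0265). Hsd17b7, the ketone reductase of the same step, had 7.93, 8.67, 8.15, 8.48 and 6.93 in BO-112 and 8.21, 8.07, 8.39, 7.95 and 8.31 in Vehicle tumors. Its groups overlapped, with BO-112 mouse 2 and mouse 4 above every Vehicle mouse and BO-112 mouse 1 and mouse 5 below them all. Its log2 fold change was -0.16 (SE 0.27, limma adjusted p = 0.758) with all mice and 0.12 without BO-112 mouse 5. The difference between Hsd17b7 and its neighbours was not tested.

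Sc5d, the sterol desaturase, had 9.36, 9.51, 9.79, 9.76 and 8.68 in BO-112 and 10.33, 10.23, 10.53, 9.94 and 10.41 in Vehicle tumors (log2 fold change -0.87, SE 0.20, limma adjusted p = 0.0353). Dhcr7, a sterol reductase of the last steps, averaged 9.15 ± 0.83 in BO-112 and 10.36 ± 0.33 in Vehicle tumors (SD, n = 5 each) without overlap, and its log2 fold change of -1.21 did not pass (limma adjusted p = 0.0636). Ebp, the sterol isomerase, averaged 8.51 ± 0.34 in BO-112 and 8.96 ± 0.49 in Vehicle tumors (SD, n = 5 each). Its groups overlapped (log2 fold change -0.44, limma adjusted p = 0.267), and it was the one sterol gene whose spread was larger among Vehicle mice.

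**Figure D3:**
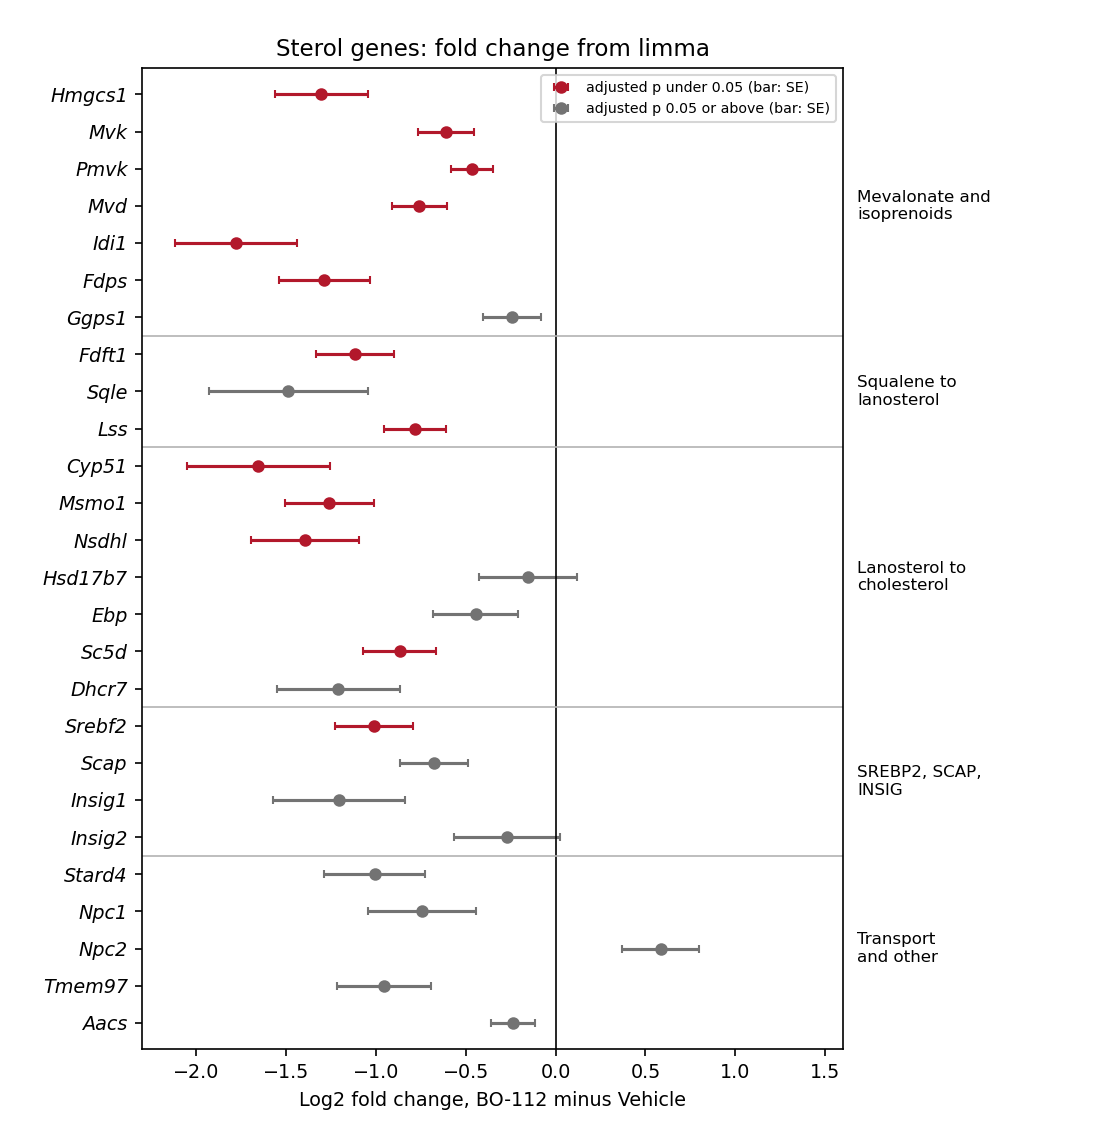
Log2 fold change, BO-112 minus Vehicle (x axis, limma, bars are the standard error), of the 26 measured sterol genes by role, in red for the 13 with an adjusted p under 0.05 and in grey for the others. All points but that of Npc2 lie left of 0, from -1.78 for Idi1 to -0.16 for Hsd17b7.

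All 4 measured transcripts of the SREBP2 system had a negative log2 fold change, and 1 passed. Srebf2 had 9.64, 10.08, 10.25, 10.41 and 9.09 in BO-112 and 10.75, 11.03, 10.97, 10.81 and 10.99 in Vehicle tumors. The groups were separate, Vehicle mice lay close together, and the log2 fold change was -1.01 (SE 0.22, limma adjusted p = 0.0272), which is 2.02-fold lower. Scap, the escort of SREBP2, had 8.22, 8.27, 8.78, 8.64 and 7.63 in BO-112 and 9.06, 9.07, 9.03, 8.98 and 8.79 in Vehicle tumors. BO-112 mouse 3 lay just under Vehicle mouse 5, and the log2 fold change of -0.68 (SE 0.19) had a limma adjusted p of 0.0611.

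The INSIG genes differed in how they are known to be controlled, Insig1 being a target of SREBP2 and Insig2 not. Insig1 had 8.71, 9.11, 9.32, 9.73 and 7.36 in BO-112 and 9.97, 10.16, 10.43, 9.61 and 10.09 in Vehicle tumors. BO-112 mouse 4 lay above Vehicle mouse 4, the others below all Vehicle mice, and the log2 fold change was -1.20 (SE 0.37, limma adjusted p = 0.0769). Insig2 had 7.62, 7.04, 7.86, 8.03 and 6.36 in BO-112 and 7.41, 7.82, 7.96, 7.88 and 7.18 in Vehicle tumors. Its groups overlapped widely (log2 fold change -0.27, SE 0.29, limma adjusted p = 0.599), and the difference was -0.02 without BO-112 mouse 5. Whether Insig1 and Insig2 differed from each other was not tested.

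None of the 5 genes of sterol transport and related functions passed. At an unadjusted p under 0.05 there were 3 lower, where 14.1% of all probe sets were, and 1 higher. Stard4, a carrier of cholesterol between membranes and a SREBP2 target, averaged 7.16 ± 0.66 in BO-112 and 8.17 ± 0.29 in Vehicle tumors (SD, n = 5 each), and the groups were separate (log2 fold change -1.01, limma adjusted p = 0.0607). Tmem97, also a SREBP2 target and a partner of NPC1, averaged 8.82 ± 0.63 in BO-112 and 9.77 ± 0.22 in Vehicle tumors (SD, n = 5 each), again without overlap (log2 fold change -0.96, limma adjusted p = 0.0571). Stard4 and Tmem97 each passed in 2 of the 10 fits without 1 mouse. Aacs, the acetoacetyl-CoA synthetase that feeds ketone bodies into the pathway, averaged 8.19 ± 0.23 in BO-112 and 8.43 ± 0.12 in Vehicle tumors (SD, n = 5 each) and overlapped (log2 fold change -0.24, limma adjusted p = 0.26).

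Npc1 and Npc2, which together export cholesterol from lysosomes, had values on opposite sides. Npc1, the membrane protein, averaged 7.81 ± 0.70 in BO-112 and 8.56 ± 0.34 in Vehicle tumors (SD, n = 5 each), with overlap (log2 fold change -0.74, limma adjusted p = 0.154). Npc2, the soluble carrier, had 9.25, 9.05, 9.51, 8.97 and 10.27 in BO-112 and 8.93, 8.94, 8.85, 8.66 and 8.75 in Vehicle tumors. Every BO-112 value was above every Vehicle value and the highest was that of BO-112 mouse 5, and the log2 fold change of 0.59 (SE 0.22) had a limma adjusted p of 0.123. Npc2 was the one sterol gene for which BO-112 mouse 5 was the highest of its group.

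The BO-112 tumors were not alike in these genes. BO-112 mouse 5 had the lowest value of its group in 23 of 26 sterol genes (88.5%), against 27.9% of all named genes, and the exceptions were Mvk, Npc2 and Aacs. BO-112 mouse 4 had the highest value in 17, against 5383 of 19176 named genes. This was not particular to the sterol genes. Of 10 melanocyte lineage genes, described below, BO-112 mouse 5 was the lowest of its group in 10 and BO-112 mouse 4 the highest in 9. A sterol gene score, averaged over the 26 deviations from the mean of the Vehicle mice, was -0.94, -0.74, -0.54, -0.40 and -1.68 in BO-112 mice 1 to 5. In Vehicle mice 1 to 5 the score was -0.08, 0.03, 0.23, -0.16 and -0.03. The groups did not overlap, and the spread among BO-112 scores (SD 0.50) was larger than among Vehicle scores (SD 0.15). Gene by gene the SD was larger in BO-112 tumors for 25 of 26 genes (96.2%), against 76.4% of all named genes and 10 of 10 melanocyte lineage genes. By stage, BO-112 mouse 5 scored -1.53 in the mevalonate and isoprenoid genes, -2.18 from squalene to lanosterol, -2.08 from lanosterol to cholesterol and -1.79 in the SREBP2 system. BO-112 mouse 4 scored -0.50, -0.64, -0.44 and -0.20 in the same stages.

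**Figure D4:**
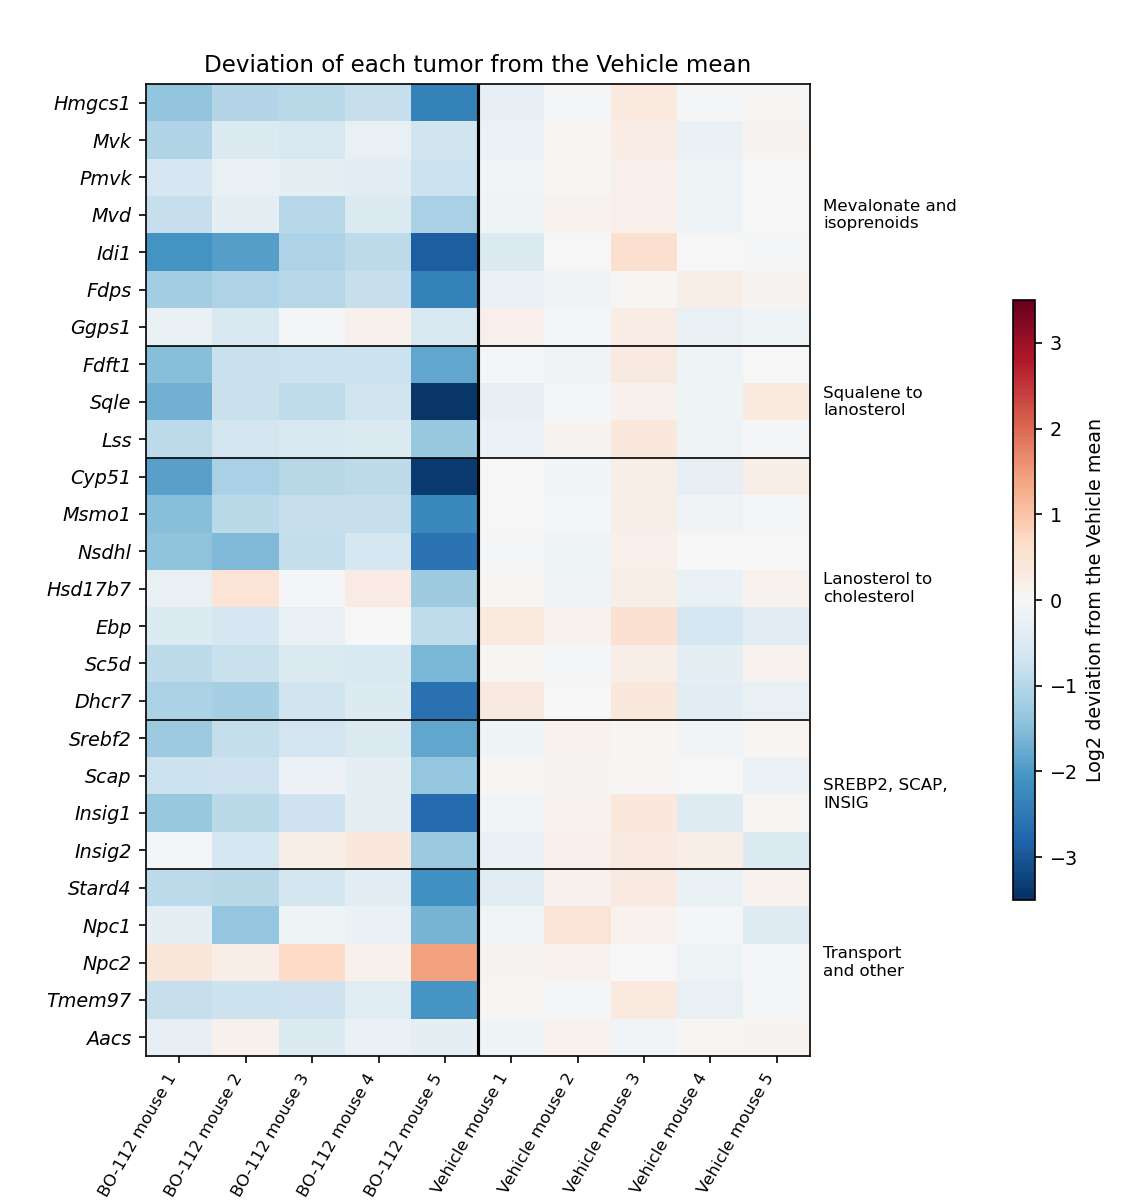
Log2 deviation of each tumor (columns, BO-112 mice left of the line and Vehicle mice right of it) from the Vehicle mean of each sterol gene (lines, grouped by role), in blue where lower and in red where higher. The column of BO-112 mouse 5 is the darkest blue, the Vehicle columns are pale, and the line of Npc2 is red in all BO-112 mice.

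Markers of the tumor cells and of other cells were read beside the sterol genes. All 10 melanocyte lineage genes of a marker list were measured, among them Pmel, Dct, Tyr and Mlana, and 0 passed in limma. A negative log2 fold change was seen in 9 and a positive one in 1 (median -0.35). At an unadjusted p under 0.05, 3 were lower, where 14.1% of all probe sets were. They were Dct (-0.39), Tyr (-0.82, without overlap of the groups) and Mitf (-0.65). The mean level of this list lay between 10.53 and 11.82 in BO-112 and between 11.68 and 11.88 in Vehicle tumors, well above the negative controls on every array, as the tissue is labelled. The melanocyte score was -0.23, -0.39, -0.15, 0.07 and -1.22 in BO-112 mice 1 to 5 and between -0.07 and 0.13 in Vehicle mice. The sterol gene score minus the melanocyte score was -0.71, -0.35, -0.38, -0.47 and -0.46 in BO-112 mice 1 to 5 and lay between -0.09 and 0.10 in Vehicle mice. Relative to the melanocyte genes the groups also did not overlap, and BO-112 mouse 5 lay within the range of the other BO-112 mice. In a fit with the melanocyte score as a covariate, chosen after the data had been seen, 8 sterol genes fell, namely Hmgcs1, Idi1, Fdps, Fdft1, Cyp51, Msmo1, Nsdhl and Srebf2. Over all probe sets, 483 were called in that fit in either direction, against 1138 in the main fit. These calls were not counted by direction, so the 8 have no matching share, and the shares of the main fit do not apply to them. Fewer melanoma cells and less of a transcript per cell cannot be told apart by these scores.

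Of 8 measured leukocyte markers, 2 passed as higher, where 2.43% of all probe sets did. They were the T cell genes Cd3g (limma adjusted p = 0.0257) and Cd8a (limma adjusted p = 0.0202). Both were above the 75th percentile of the negative controls on 5 of 5 BO-112 arrays, but Cd3g on 0 and Cd8a on 1 of 5 Vehicle arrays, so the size of the difference is not given. On the whole list, 6 of the 8 had an unadjusted p under 0.05, against 25% of all probe sets. A positive log2 fold change was seen in 7, and the macrophage gene Adgre1 was at -0.27 (limma adjusted p = 0.748). BO-112 mouse 5 was the highest BO-112 mouse in 6 of the 8. The mean level of that list lay between 6.70 and 9.03 in BO-112 and between 5.54 and 6.83 in Vehicle tumors, and BO-112 mouse 5 had the highest score, 2.73. Of 10 skeletal muscle, 10 epidermis and sebaceous gland, 8 adipocyte and 7 fibroblast and vessel markers, 0 passed, with 0, 1, 1 and 0 at an unadjusted p under 0.05. The epidermis and sebaceous gene was Mc5r (log2 fold change 0.43), which was not above the 75th percentile of the negative controls on any array. The adipocyte gene was Pnpla2 (log2 fold change 0.44), in a list where 5 of 8 genes had a negative log2 fold change. The muscle list ranged between 5.90 and 10.52 in BO-112 and between 6.01 and 9.11 in Vehicle tumors, and BO-112 mouse 5 was the highest of its group in 10 of 10 muscle genes, as it was in 7 of 7 fibroblast and vessel genes. The epidermis and sebaceous list ranged between 5.48 and 8.52 in BO-112 and between 5.47 and 7.66 in Vehicle tumors, the adipocyte list between 5.79 and 7.22 in BO-112 and between 5.74 and 7.84 in Vehicle tumors, and the fibroblast and vessel list between 8.19 and 9.96 in BO-112 and between 7.20 and 9.17 in Vehicle tumors. The part of these cells in the values of the sterol genes was not tested.

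**Figure D5:**
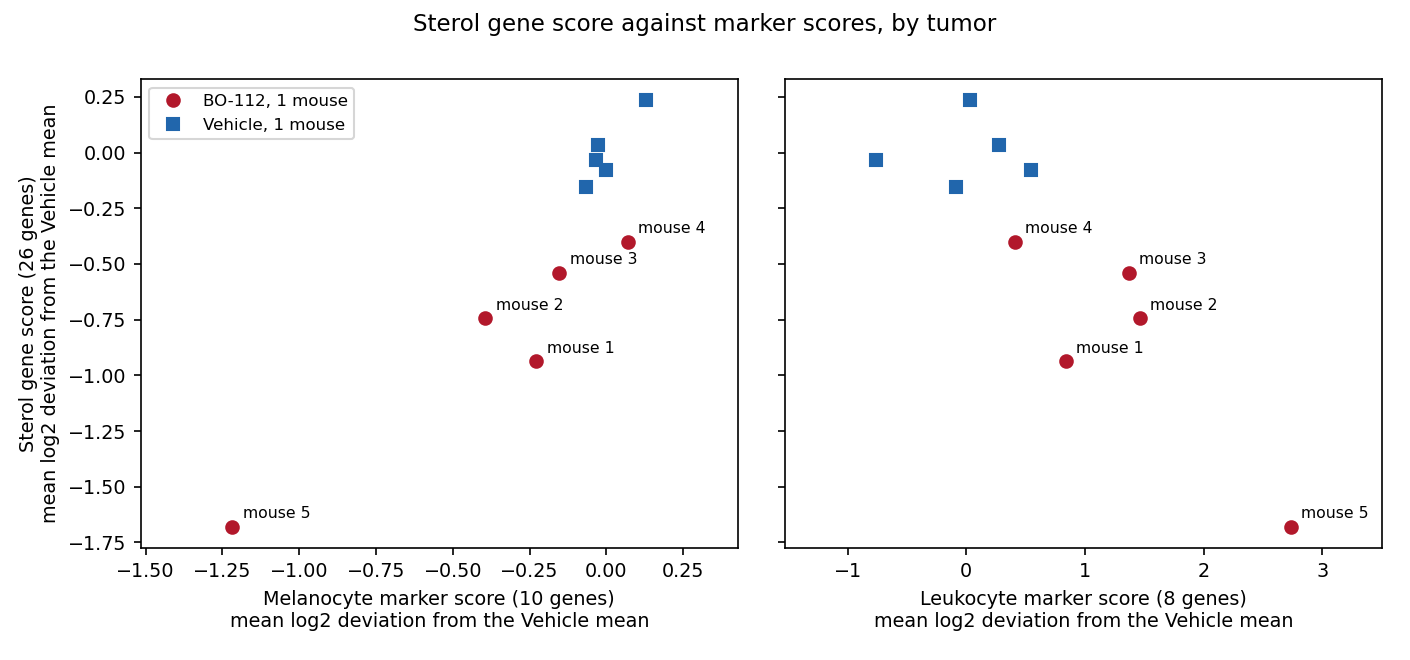
Sterol gene score (y axis, 26 genes) of each tumor against the score of 10 melanocyte markers (left) and of 8 leukocyte markers (right), each the mean log2 deviation from the Vehicle mean, with BO-112 mice as red circles and Vehicle mice as blue squares. BO-112 mouse 5 lies at a melanocyte score of -1.22 and a leukocyte score of 2.73, and the highest BO-112 sterol score, -0.40 in mouse 4, is below all Vehicle scores.

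Genes next to the pathway were read from lists of the same fit. Of 10 other measured SREBP target genes, most of them of fatty acid supply, 4 fell and 0 rose, and all 10 had a negative log2 fold change (median -0.88). At an unadjusted p under 0.05, 9 were lower, against 14.1% of all probe sets. Scd1, a fatty acid desaturase, had 9.07, 10.22, 9.96, 10.31 and 8.73 in BO-112 and 10.95, 11.86, 11.23, 11.55 and 11.32 in Vehicle tumors (log2 fold change -1.72, SE 0.31, limma adjusted p = 0.0127). Fasn, fatty acid synthase, had 8.57, 8.61, 8.67, 8.80 and 7.24 in BO-112 and 9.57, 10.12, 9.89, 9.94 and 9.90 in Vehicle tumors (log2 fold change -1.50, SE 0.26, limma adjusted p = 0.0116). The groups of Scd1 and Fasn did not overlap, and BO-112 mouse 5 was lowest in both, as in the sterol genes. The other genes of this list that fell were Acly, which supplies cytosolic acetyl-CoA (log2 fold change -0.79, limma adjusted p = 0.0223), and Elovl6, a fatty acid elongase (log2 fold change -1.39, limma adjusted p = 0.0233).

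Genes that process or degrade the SREBP2 machinery showed no call. Of 7 measured, 0 passed in limma and 1 had an unadjusted p under 0.05, Mbtps1, the Golgi protease that makes the first cut in SREBP2, at -0.41 (limma adjusted p = 0.103). Erlin1 and Pgrmc1, of the endoplasmic reticulum, stood at -0.25 and -0.28 on the log2 scale of change (limma adjusted p = 0.295 and 0.298). Among 8 measured genes that use isoprenoids, 1 fell, Fnta, the shared subunit of the farnesyl and geranylgeranyl transferases. Fnta had 7.77, 7.55, 7.82, 8.15 and 7.44 in BO-112 and 8.42, 8.75, 8.80, 8.67 and 8.57 in Vehicle tumors, without overlap (log2 fold change -0.90, SE 0.14, limma adjusted p = 0.00771). Coq2 and Pdss2, of ubiquinone synthesis, stood at 0.59 and -0.50 on that scale (limma adjusted p = 0.117 and 0.123).

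Genes of oxysterol production and cholesterol efflux were the last list. Of 8 tested, 1 rose and 0 fell, and the median log2 fold change was 0.43. Cyp27a1, Cyp7b1 and Cyp46a1, which hydroxylate cholesterol or oxysterols, were not above the 75th percentile of the negative controls on any array of either group, and the 2 negative log2 fold changes of the list were among them. Ch25h, which makes an oxysterol that blocks SREBP2 processing and is induced by interferon, had 7.33, 7.09, 7.94, 7.39 and 9.25 in BO-112 and 6.50, 6.13, 6.20, 6.14 and 5.73 in Vehicle tumors. The groups were separate, BO-112 mouse 5 was the highest, and the log2 fold change was 1.66 (SE 0.35, limma adjusted p = 0.0246). That mouse was also the highest of its group in 26.3% of all named genes, in 6 of 8 leukocyte markers and in 7 of 7 fibroblast and vessel markers. Ch25h was above the 75th percentile of the negative controls on 5 of 5 BO-112 arrays but on 2 of 5 Vehicle arrays, so the size of this difference rests on values at background in most Vehicle tumors. Mylip, a ubiquitin ligase under the control of LXR, was at 0.47 (log2, limma adjusted p = 0.165), and Nr1h3, which encodes LXR alpha, at 0.86 (log2, limma adjusted p = 0.197) with 3 of 5 Vehicle arrays above the negative controls. A relation between Ch25h and the sterol genes was not tested.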

How the data were processed

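Whole B16OVA tumors of 5 BO-112 and 5 Vehicle mice were measured on 1 array each. The authors ran RMA, and what they deposited is 1 log2 expression value for each probe set and array. Quantile normalization within RMA removes a shift shared by most transcripts, and its background model compresses dim probe sets. No source used here gives a software version. Titles of the samples gave group and mouse number, and all 10 arrays were used.

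Of 22206 transcript probe sets, 21792 passed a filter written after the description in the study, log2 values over 4 on 3 or more arrays of a group. The set need not be the one the study tested, since its count differs. These were fitted by group alone in limma 3.58.1 under R 4.3.3 (two-sided tests after eBayes with a prior proportion of 0.01). P-values were adjusted over all of them by Benjamini-Hochberg, with a threshold of 0.05, and the B-statistic was read at 0. Adjusted p-values in the text come from this fit, and SE is its moderated standard error. Arrays give no molecule counts, so their number limits the precision. The calculations were tested on simulated data. The genes, lists and alternatives were chosen with earlier results of these data known. All 26 measured sterol genes are named, with values in every mouse for those that passed and for the regulators (also for Sqle, Hsd17b7 and Npc2, chosen after their values were seen), and up to 3 genes of lowest p in each further list (Elovl6 was added after its value was seen). The alternatives were other filters and normalizations, variance models, a replicate block by mouse number, leaving out single mice, BO-112 mice 2 and 5 left out, and the array contrast or, chosen after seeing the data, the melanocyte score as covariates. Symbols were checked by gene identifier, which changed 0 of the 26.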

Additional observations from a re-analysis of the deposited data

Results flagged for a closer look

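In Fdps and Tmem97, BO-112 mouse 5 lay far from the other BO-112 mice. Fdps was 6.34 in that mouse, where the median of the other 4 was 7.67, and Tmem97 was 7.72, where the median of the other 4 was 9.03. As a fraction of the range of the group, the gap to the nearest mouse was 0.736 for Fdps and 0.774 for Tmem97. With 5 mice per group, 56 sets of values were examined in this way and chance marks about 1 in 20. These 2 were the sets marked. BO-112 mouse 5 was also the mouse with the lowest melanocyte score and the highest leukocyte score, and the part of other cells in these values was not tested.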

How the results depend on the processing

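In the 22 alternatives the median log2 fold change of the sterol genes was negative each time, between -1.02 (without BO-112 mouse 4) and -0.52 (melanocyte score as a covariate), and the count of genes that rose was 0 each time. The count that fell, 13, moved to 0 without moderation of the variance (19 at an unadjusted p under 0.05), 0 with the array contrast as a covariate (13 at an unadjusted p under 0.05) and 8 with the melanocyte score, and it ran between 1 and 19 when single mice were left out. Calls over all probe sets, in either direction, moved as well. They were 1138 in the main fit, 275 without moderation, 27 with the array contrast and 483 with the melanocyte score. With the mouse number as a replicate block 1 gene fell, Idi1, and 102 of all probe sets were called. Deviations of same-numbered mice of both groups had correlations of -0.31, -0.09, 0.39, -0.21 and -0.26 for numbers 1 to 5. Of the 5 BO-112 mice, 1 correlated best with its own number. With 5 mice per group these values cannot decide whether the numbers pair the mice, and the labels give only the numbers. The count at B over 0, 6, moved to 10 with array weights and 0 with the array contrast, and ran between 0 and 11 without single mice (0 without BO-112 mouse 1 or Vehicle mouse 2, 3, 4 or 5, 2 without Vehicle mouse 1 and 11 without BO-112 mouse 5). Mvk and Pmvk did not pass with a variance trend and robust estimation. Hsd17b7 ran between -0.32 and 0.12 without single mice, positive only without BO-112 mouse 5, and was 0.29 with the melanocyte score, and Insig2 turned to 0.012 with array weights, 0.18 without BO-112 mice 2 and 5, 0.20 with the array contrast and 0.24 with the melanocyte score, none of them called. Causes were not tested. No sterol gene had a further probe set, so that alternative gave no value. With 5 mice per group the number of arrays limits the precision.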
